A study of Mus musculus with 24 samples.

Results

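Marcks and Marcksl1 are the 2 genes of the MARCKS family, described here in microglia of mice with and without an operation on the carotid arteries. They are 2 of the 15878 genes with values in the deposited table, found by their gene symbols, and both were among the 10219 genes that passed the filter on low counts. Marcks was picked from earlier results of these data, where it had the smallest p of the genes that were higher in operated than in sham mice, and Marcksl1 was added as its relative. The difference between operated and sham mice is therefore given below as a description, with no test. The same holds for every other comparison that uses a sham library or a library of operated mice without exosomes. The difference between the 2 exosome groups uses neither, and it was tested. The edgeR test of that difference took the spread between libraries from all groups, Sham and BCAS included. Its p for Marcks is therefore not free of the choice of the gene. The exact permutation test used the exosome libraries alone.

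RNA was measured in 24 libraries in 4 groups of 6, from microglia sorted out of brain by fluorescence-activated cell sorting and amplified by Smart-seq2, a full-length method for small amounts of RNA. All mice were wild type, labelled WT, and all samples were taken at 28 days. Sham is the control group, given PBS. BCAS mice had the operation, bilateral carotid artery stenosis by its common abbreviation, which lowers blood flow to the forebrain, and also got PBS. ND-Exos and WD-Exos are BCAS mice given 100 µg of exosomes into the tail vein every 3 days. Exosomes are small vesicles that cells release. The title of the series names foam cells, which are lipid-laden macrophages, as their source, and it concerns metabolic defects passed to microglia in white matter injury. No age or batch is given in the labels, nor the meaning of ND and WD, nor whether each library of a group is from a different mouse. The p-values therefore rest on the scatter of libraries alone, and part of that scatter may be technical.

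Depth was even, with 24277721 to 28892422 counts in a library and 8515 to 10794 genes detected. All 17 of the listed marker genes of homeostatic microglia, such as P2ry12 and Tmem119, had a count in every library. Of the other cell types, 4 of 10 oligodendrocyte markers, 3 of 10 markers of border macrophages, 1 of 12 of astrocytes, 1 of 10 of endothelial cells, 1 of 10 of neutrophils and 1 of 5 of B cells had one in every library. None of the markers of neurons, monocytes, oligodendrocyte precursors, mural cells or T and NK cells did. The summed oligodendrocyte markers reached 8640 CPM in a Sham library, 4905 in an ND-Exos library and 5858 in a WD-Exos library, while the group medians were 231 to 339 CPM. The share of counts from ribosomal protein genes was 6.24% ± 0.539 (SD, n = 6) in Sham, 4.53% ± 0.814 in BCAS, 4.62% ± 0.497 after ND-Exos and 4.29% ± 0.667 after WD-Exos.

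MARCKS proteins sit on the inner face of the plasma membrane, held there by a myristoyl lipid at the N-terminus and by a short basic stretch called the effector domain. This stretch binds the membrane lipid PIP2, calcium-loaded calmodulin and actin filaments. Protein kinase C phosphorylates serines within it, and the protein then leaves the membrane and frees PIP2. In macrophages and microglia the family is known for links to cell shape, movement and phagocytosis. MARCKS is abundant in these cells, and Marcksl1, also called MacMARCKS or MRP, is known as a gene that macrophages induce on exposure to bacterial lipopolysaccharide.

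The stretch that codes for the effector domain is shown because it is what makes both genes 1 family. In each coding sequence it was found as the 75 bases with the most lysine and arginine codons, and capitals mark the bases that are the same in both genes.
Marcks: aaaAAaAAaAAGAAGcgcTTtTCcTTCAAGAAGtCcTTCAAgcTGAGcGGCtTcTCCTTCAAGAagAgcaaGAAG
Marcksl1: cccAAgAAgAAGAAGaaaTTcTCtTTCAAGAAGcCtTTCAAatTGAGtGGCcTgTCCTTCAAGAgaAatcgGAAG
Both are from the transcripts of GENCODE vM21 on the build GRCm38. The Marcks stretch lies at chr10:37136531-37136605 on the minus strand and holds codons 145 to 169 of 309. The Marcksl1 stretch lies at chr4:129514885-129514959 on the plus strand and holds codons 86 to 110 of 200. Each lies in the coding part of exon 2 of 2. Lysine or arginine codons make up 13 of the 25 codons in Marcks and 12 of 25 in Marcksl1, against 8.4% and 11% of codons over the whole coding sequences. In these 75 bases 52 (69.3%) are identical. The longest run of identical bases between the full transcripts is 17 bases, and Marcksl1 shares a run of 54 bases with its pseudogene Marcksl1-ps4. RefSeq lists 5 Marcksl1 pseudogenes, and none of them is a row of the count table, so whether reads from a pseudogene were counted to Marcksl1 was not tested.

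Marcks was abundant in every library, and its level in every BCAS library lay above every Sham library. Levels are given as CPM, which sets each count against its library's total after TMM, a correction for differences in composition. In Sham, Marcks stood at 443, 532, 381, 459, 411 and 492 CPM in replicates 1 to 6. In BCAS it stood at 565, 938, 638, 736, 895 and 1103 CPM. The lowest BCAS library, replicate 1, lay just above the highest Sham library, replicate 2, and BCAS replicate 6 was the highest of all 24. After ND-Exos it stood at 614, 723, 837, 794, 558 and 850 CPM. After WD-Exos it stood at 480, 497, 525, 628, 824 and 568.0 CPM. Every ND-Exos library lay above every Sham library, whereas 3 of 6 WD-Exos libraries (replicates 1 to 3) lay within the Sham range. Of the 12 exosome libraries, 9 lay above the highest Sham library and none below the lowest.

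The group means of Marcks were 453 ± 54.2 CPM (SD, n = 6) in Sham, 812 ± 202 in BCAS, 729 ± 121 after ND-Exos and 587 ± 128 after WD-Exos. Ranked by mean level among the 10219 tested genes, it was the 290th gene in Sham, the 147th in BCAS, the 160th after ND-Exos and the 218th after WD-Exos. The order was thus BCAS, ND-Exos, WD-Exos, Sham. Each group overlapped its neighbour in that order, and only the ends and the ND-Exos and Sham groups were fully apart. The biological coefficient of variation of Marcks, its spread between libraries of a group, was 0.252. The median over the 1423 tested genes at or above 100 CPM was 0.335. Those genes were not matched to Marcks by level, and choosing a gene by its small p favours a low spread, so this is a description.

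Marcksl1 was a low and very uneven gene in the same libraries. In Sham it stood at 4.85, 6.68, 41.2, 15.3, 6.11 and 7.56 CPM in replicates 1 to 6. In BCAS it stood at 43.3, 67.1, 3.21, 1.04, 0.488 and 0.107 CPM. Thus 2 BCAS libraries lay above every Sham library and the other 4 below every Sham library. After ND-Exos it stood at 18, 0, 5.22, 0.0385, 26.8 and 6.73 CPM, and after WD-Exos at 51.9, 88, 38, 21, 7.92 and 8.39 CPM. The lowest values rest on very few counts: 3 in BCAS replicate 6, 1 in ND-Exos replicate 4 and 0 in ND-Exos replicate 2, where a count of 0 allows up to 0.121 CPM. The highest is 2526 counts, in WD-Exos replicate 2. That limit covers counting error only, since Smart-seq2 reads carry no molecular identifiers and cannot be taken as separate molecules.

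**Figure D1:**
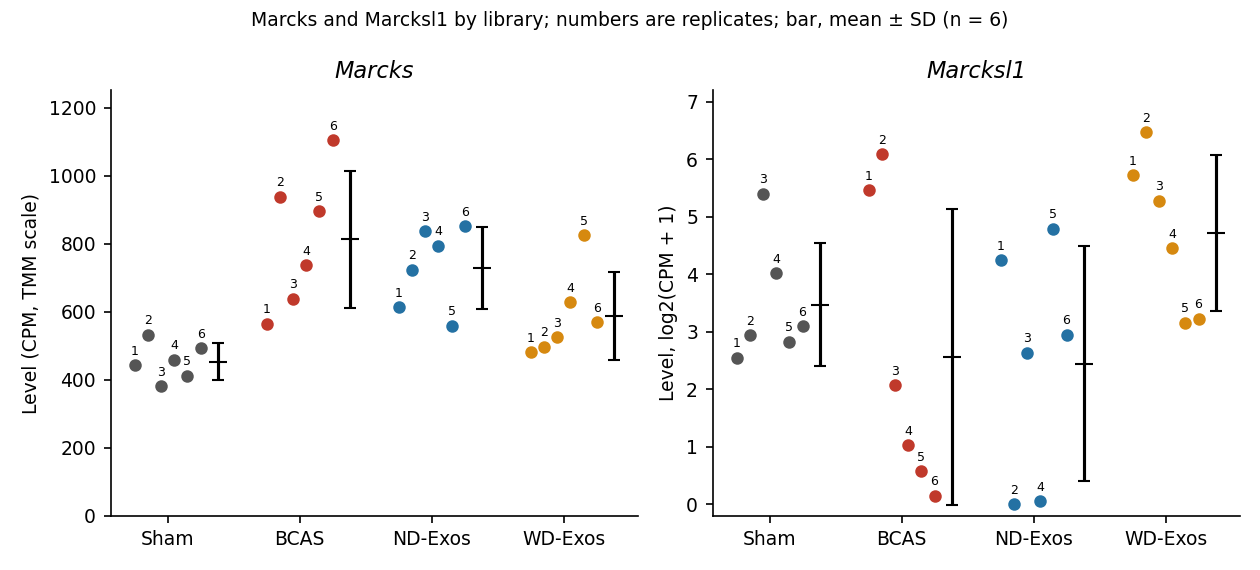
Level of Marcks (left, CPM) and of Marcksl1 (right, log2 of CPM + 1) in each of the 24 libraries by group, with the replicate number at each point and the mean ± SD of 6 libraries as a bar. The 6 BCAS points for Marcks, 565 to 1103 CPM, all lie above the 6 Sham points, 381 to 532 CPM, whereas for Marcksl1 the groups overlap and the BCAS points span from 0.107 to 67.1 CPM.

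For Marcksl1 the order of the groups depended on the summary. The means were 13.6 ± 14 CPM (SD, n = 6) in Sham, 19.2 ± 28.9 in BCAS, 9.46 ± 10.7 after ND-Exos and 35.9 ± 30.8 after WD-Exos. The medians were 7.12, 2.12, 5.98 and 29.5 CPM. BCAS thus had a higher mean and a lower median than Sham. WD-Exos was the highest by both, and every pair of neighbours in either order overlapped. Its biological coefficient of variation was 1.42, near the median of 1.36 over the 5908 tested genes at 5 to 50 CPM. Compared per length, as CPM per kilobase of transcript, Marcks stood at 112 in Sham and Marcksl1 at 8.48, and in BCAS they stood at 200.7 and 12. After ND-Exos the values per kilobase were 180 for Marcks and 5.89 for Marcksl1, and after WD-Exos 145 and 22.3. Marcks was therefore the main transcript of the pair in each group.

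In the fit over all genes, the Marcks log2 fold change of BCAS against Sham was 0.84 (SE 0.16), or 1.79-fold, the difference that chose the gene. A complete separation with the first group higher occurred for 0.127% of tested genes in this comparison. Against BCAS, the Marcks log2 difference was −0.16 (SE 0.16) after ND-Exos and −0.47 (SE 0.16) after WD-Exos. Against Sham it was 0.69 (SE 0.16) after ND-Exos and 0.37 (SE 0.16) after WD-Exos. Separation of ND-Exos above Sham occurred for 0.294% of tested genes. The ND-Exos minus BCAS value was between −0.049 (without BCAS replicate 6) and −0.242 (without BCAS replicate 1) on leaving out single libraries. These comparisons share the Sham or the BCAS libraries, so they are not separate evidence. With the ribosomal protein share as a covariate, the BCAS minus Sham difference of Marcks was 0.77 (SE 0.22). That share was 5.74 to 7.1% in Sham and 3.87 to 6.15% in BCAS, with a BCAS median of 4.34%. It thus largely followed the group, and this fit can hardly tell the share and the operation apart. Sums of markers of other cell types also varied, with ranges that overlapped between the groups, and were not tested for a difference. Of the listed markers, 2 of 10 for neutrophils and 1 of 5 for B cells passed the filter on low counts. For endothelial cells 4 of 10 did, and for border macrophages 8 of 10. The neutrophil sum was 179 to 328 CPM in Sham, 148 to 640 in BCAS, 197 to 425 after ND-Exos and 271 to 676 after WD-Exos, with 1 of the 6 genes with values at 0 throughout. That of B cells was 8.62 to 37.8, 24.6 to 53.5, 14.5 to 54.6 and 10.2 to 35.6 CPM in the same groups. The endothelial sum was 522 to 1407, 469 to 699, 483 to 766 and 617 to 740 CPM, and that of border macrophages 294 to 1580, 73.8 to 595, 234 to 896 and 137 to 321 CPM. Their part in the Marcks differences was not tested. In bulk RNA, fewer cells of a type and less RNA per cell cannot be told apart.

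For Marcksl1 the same differences carried errors larger than most of the values. The log2 difference was 0.50 (SE 1.30) for BCAS minus Sham, −1.02 (SE 1.31) for ND-Exos minus BCAS and 0.90 (SE 1.31) for WD-Exos minus BCAS. It was −0.52 (SE 1.30) for ND-Exos minus Sham and 1.40 (SE 1.32) for WD-Exos minus Sham. The direction of several of these values was not stable. BCAS minus Sham turned to −0.51 without BCAS replicate 2, the library with the most Marcksl1 in that group, and to −1.61 by voom with all libraries kept. ND-Exos minus Sham turned to 0.23 without Sham replicate 3, and ND-Exos minus BCAS was −0.01 without BCAS replicate 2. The BCAS and WD-Exos libraries with the same replicate number deviated together in all 6 pairs (correlation 0.118 to 0.288 across genes), though the labels do not say that they share a mouse, litter or day. Within these pairs Marcks was lower after WD-Exos in 6 of 6 and Marcksl1 higher in 6 of 6. The share of all genes that did so was not computed. The pairing itself was seen in the same data. Marcks was chosen for its high level in the BCAS libraries, which favours lower values after WD-Exos in advance. These counts are therefore a description. With the replicate number as a block over all 24 libraries, WD-Exos minus BCAS was −0.45 (SE 0.16) for Marcks and 1.83 (SE 1.57) for Marcksl1. With the pairs as a block on the 12 libraries, added after seeing the data, it was −0.44 (SE 0.16) for Marcks and 3.20 (SE 1.09) for Marcksl1. Both are descriptions like the unpaired values.

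**Figure D2:**
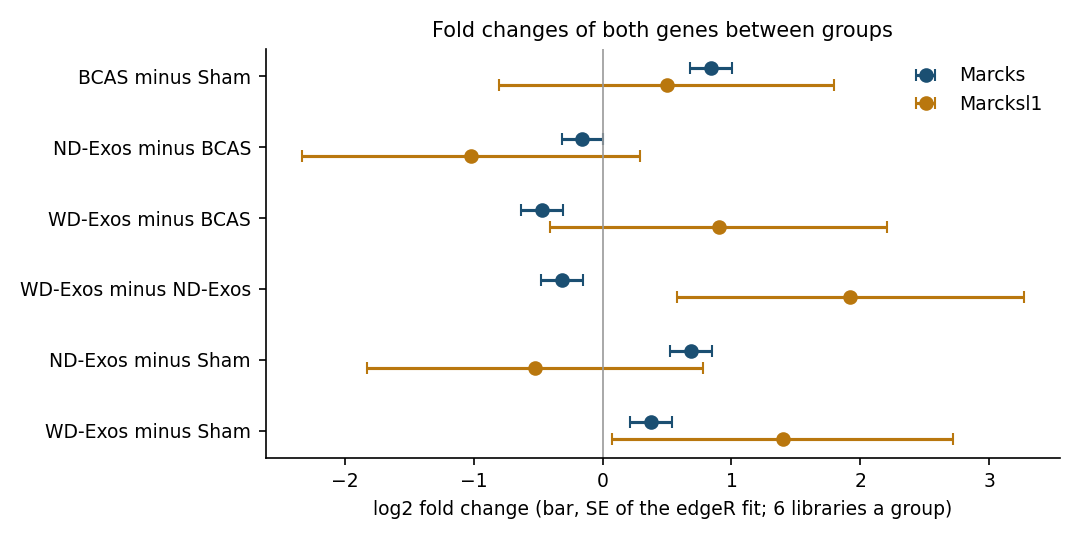
Log2 fold change of Marcks (blue) and Marcksl1 (orange) for 6 pairs of groups, with the SE of the fit as bars and 6 libraries a group. The bars of Marcks have an SE of 0.16 and those of Marcksl1 of 1.30 to 1.34, so that for Marcksl1 4 of 6 bars reach across 0.

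The kind of exosome was compared by setting WD-Exos against ND-Exos, which asks whether exosomes of the 2 sources act differently on microglia of BCAS mice. Neither gene passed the test. Marcks was 0.31 lower on the log2 scale after WD-Exos (log2 difference −0.31, SE 0.16), and edgeR's quasi-likelihood test gave an unadjusted p of 0.0648 and a Benjamini-Hochberg adjusted p of 1. The spread in that fit came from all groups, including the Sham and BCAS libraries that chose Marcks. With only the libraries of the 2 exosome groups fitted, the same edgeR test gave an unadjusted p of 0.0749 (log2 difference −0.31, SE 0.16). An exact two-sided permutation test of log2(CPM + 1) over the 12 libraries gave p = 0.0758, with 3 of 6 WD-Exos libraries below every ND-Exos library. Marcksl1 was 1.92 higher after WD-Exos (SE 1.34), with an unadjusted p of 0.164 and an adjusted p of 1 in edgeR. Here the exact permutation test gave p = 0.0498, unadjusted, for a mean difference of 2.27 in log2(CPM + 1), with 3 of 6 WD-Exos libraries above every ND-Exos library. In this comparison 0.0196% of all tested genes had an adjusted p under 0.05 and 5.33% an unadjusted p under 0.05. The 2 genes thus stood on opposite sides of 0, Marcks lower and Marcksl1 higher. Whether the 2 genes differ in their response was not tested.

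Within the groups, libraries with more Marcksl1 tended to have less Marcks, but this relation did not pass the correction for multiple tests. Group means were subtracted from log2(CPM + 1), and p-values came from 100000 permutations within groups, adjusted over the 37 relations computed for the 2 genes. Pearson's r between the genes was −0.51 (p = 0.0368, adjusted p = 0.194) and Spearman's rho was −0.48 (p = 0.0431, adjusted p = 0.223) over 24 libraries. Without BCAS replicates 1 and 2, the 2 libraries farthest from the median, r was −0.61. The group means subtracted there were still those of all 24 libraries, so the remaining BCAS values were not centred anew. By group, rho over 6 libraries was −0.143 in Sham, −0.429 in BCAS, −0.429 after ND-Exos and −0.886 after WD-Exos.

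Libraries with more Marcksl1 had higher levels of inflammatory genes over all groups together, with the opposite sign among the 6 Sham libraries. The inflammatory score is the mean log2(CPM + 1) of 16 tested genes of a list of cytokines, chemokines and NF-kB targets such as Il1b, Tnf, Ccl3 and Nfkbia. The score was 3.65 ± 0.715 (SD, n = 6) in Sham, 4.57 ± 1.38 in BCAS, 4.33 ± 0.683 after ND-Exos and 5.32 ± 0.874 after WD-Exos. With group means subtracted, r between Marcksl1 and the score was 0.729 (permutation p = 0.0007, adjusted p = 0.0259), the 1 relation of the 37 with an adjusted p under 0.05 for r. Spearman's rho was 0.604 (permutation p = 0.00551), which did not pass after adjustment (adjusted p = 0.146). Without BCAS replicates 2 and 6, and with group means still taken over all 24 libraries, r was 0.617. By group, rho was 0.943 in BCAS, 0.829 after ND-Exos and 0.714 after WD-Exos, but −0.714 in Sham. The difference in direction between Sham and the other groups was not tested. BCAS replicates 1 and 2, the 2 with the most Marcksl1 in that group, had the highest scores there at 5.86 and 6.44, and replicate 6, with the least, had the lowest at 2.86.

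Other measures moved with Marcksl1 without passing after adjustment. For the immediate early genes, a list of fast transcription factors and feedback genes such as Fos and Egr1 that also respond to cell handling, r was 0.609 (permutation p = 0.0052, adjusted p = 0.0745). For the number of detected genes r was 0.577 (permutation p = 0.0077, adjusted p = 0.0745). For the summed monocyte markers r was −0.469 (adjusted permutation p = 0.0745), and for those of neurons it was −0.516 (adjusted permutation p = 0.0929). The immediate early relation went opposite ways in the exosome groups, with rho of −0.886 after ND-Exos and 0.771 after WD-Exos over 6 libraries each. For Marcks, no relation passed. The one with the largest r beyond Marcksl1 was with the summed astrocyte markers, at 0.485 (permutation p = 0.0345, adjusted p = 0.194), and r with the inflammatory score was −0.48 (permutation p = 0.0546, adjusted p = 0.224). The astrocyte marker sum was 110 to 274 CPM in Sham, 52.2 to 267 in BCAS, 101 to 496 after ND-Exos and 129 to 525 after WD-Exos, with none of its 12 genes at 0 throughout. Much of that sum was 1 gene, Slc1a3, which is also among the genes most like Marcks named below. Group means of Slc1a3 were 90.6, 151, 162 and 151 CPM in that order, beside 173, 176, 288 and 226 CPM for the sum. Astrocyte content and the level of Slc1a3 were not separated. The monocyte sum was 0 to 48.4 CPM in Sham, 5.58 to 37.8 in BCAS, 0.0715 to 52.8 after ND-Exos and 3.21 to 74.7 after WD-Exos, and 7 of 9 listed genes had values, none at 0 throughout. The neuron sum was 0.416 to 341 CPM in Sham, 0.0367 to 19.6 in BCAS, 0 to 23.1 after ND-Exos and 0.111 to 16.9 after WD-Exos, with none of its 10 genes at 0 throughout. The part of these cell types in the levels of both genes was not tested.

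**Figure D3:**
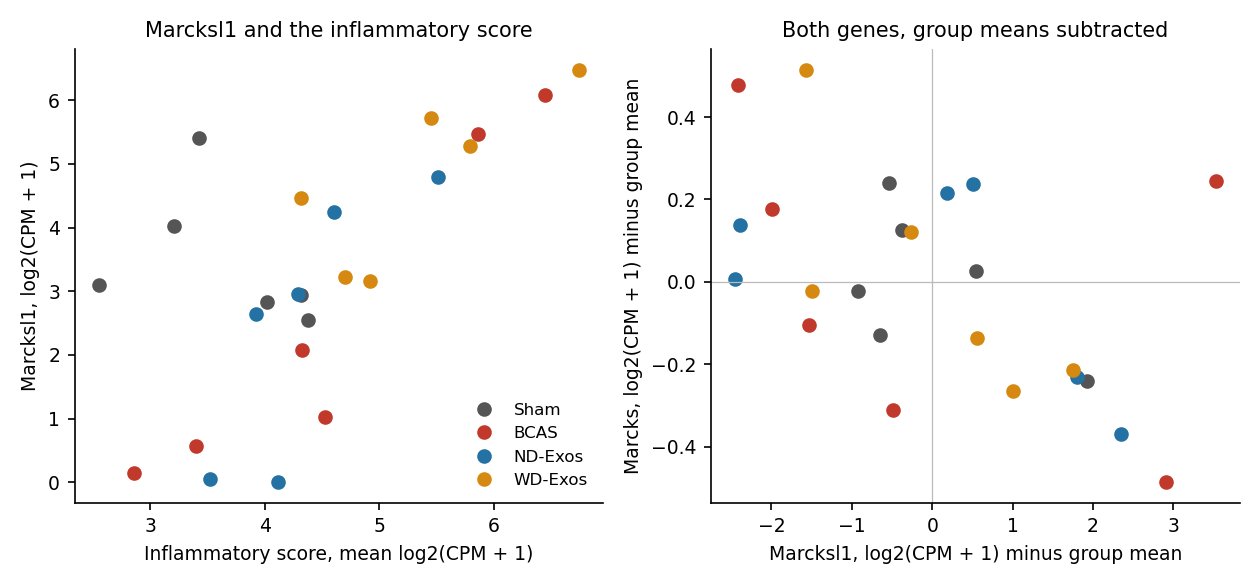
Left, Marcksl1 as log2(CPM + 1) against the inflammatory score, the mean log2(CPM + 1) of 16 genes, with 1 point a library colored by group; right, Marcks against Marcksl1 with group means subtracted. In the left panel the BCAS, ND-Exos and WD-Exos points climb from low to high scores while the 6 Sham points do not, and in the right panel r is −0.51 over 24 libraries.

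The genes whose levels followed Marcks most closely over the 24 libraries were searched among 1421 genes with a count in every library and a mean of at least 100 CPM. The nearest was Qk, the gene of an RNA-binding protein known for splicing and myelin, with Spearman's rho of 0.836. Next were Evi2a, a membrane protein gene inside an intron of Nf1, at 0.759, and the transcription factor gene Zfhx3, at 0.736. Macf1, which encodes a giant linker of actin and microtubules, stood at 0.718. The glutamate transporter gene Slc1a3, which is also on the list of astrocyte markers, stood at 0.661, and Septin2, a filament-forming GTPase, at 0.646. With group means subtracted, rho was 0.643 for Qk, 0.458 for Evi2a, 0.336 for Zfhx3, 0.35 for Macf1, 0.439 for Slc1a3 and 0.297 for Septin2. Qk alone was also among the 6 nearest genes by group-centred values. The likeness over all 24 libraries includes the difference between groups that chose Marcks. The levels of Qk were 621 ± 99.7 CPM (SD, n = 6) in Sham, 1173 ± 258 in BCAS, 1329 ± 356 after ND-Exos and 915 ± 299 after WD-Exos.

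Of the 5 of these genes with a known transcript length, 4 were longer than Marcks. The median transcript length of the 5 was 8547 bases, against 2414 over the 1403 searched genes with one. The Marcks transcript has 4048 bases, longer than 80.9% of 1404 genes, and that of Marcksl1 has 1605, longer than 26.9%. In BCAS minus Sham the 280 longest of these genes, 3982 bases or more, had a median log2 difference of 0.128, and 65.7% of them were higher. The 280 shortest, up to 1353 bases, had a median of −0.149, and 30.7% were higher. Within groups, r between Marcks and the difference in level between long and short genes was −0.0248 (permutation p = 0.925, adjusted p = 0.972). The groups went different ways, with rho over 6 libraries of 0.6 in Sham, 0.371 in BCAS, −0.543 after ND-Exos and 0.0857 after WD-Exos. With the difference between long and short genes as a covariate, the log2 difference of Marcks between BCAS and Sham was 0.84 (SE 0.17). The part of transcript length in the Marcks difference was not tested.

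The genes nearest to Marcksl1 were Cmtm7, a membrane protein gene, with rho of 0.768, the gamma-actin gene Actg1 at 0.757 and the tyrosine sulfotransferase gene Tpst2 at 0.756. The death receptor gene Tnfrsf21 followed at 0.74, the activation marker Cd83 at 0.722 and Spi1 at 0.709. Spi1 encodes PU.1, a transcription factor that defines macrophages and microglia. Cd83 is also 1 of the genes of the inflammatory score. With group means subtracted these values were 0.729 for Cmtm7, 0.731 for Actg1, 0.63 for Tpst2, 0.691 for Tnfrsf21, 0.763 for Cd83 and 0.653 for Spi1, and 3 of the 6 were also among the 6 nearest by group-centred values. Levels of Actg1 were 1212 ± 134 CPM (SD, n = 6) in Sham, 1208 ± 785 in BCAS, 948 ± 165 after ND-Exos and 1425 ± 361 after WD-Exos. All of these values describe libraries that share depth and handling, and no p was computed for them.

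**Figure D4:**
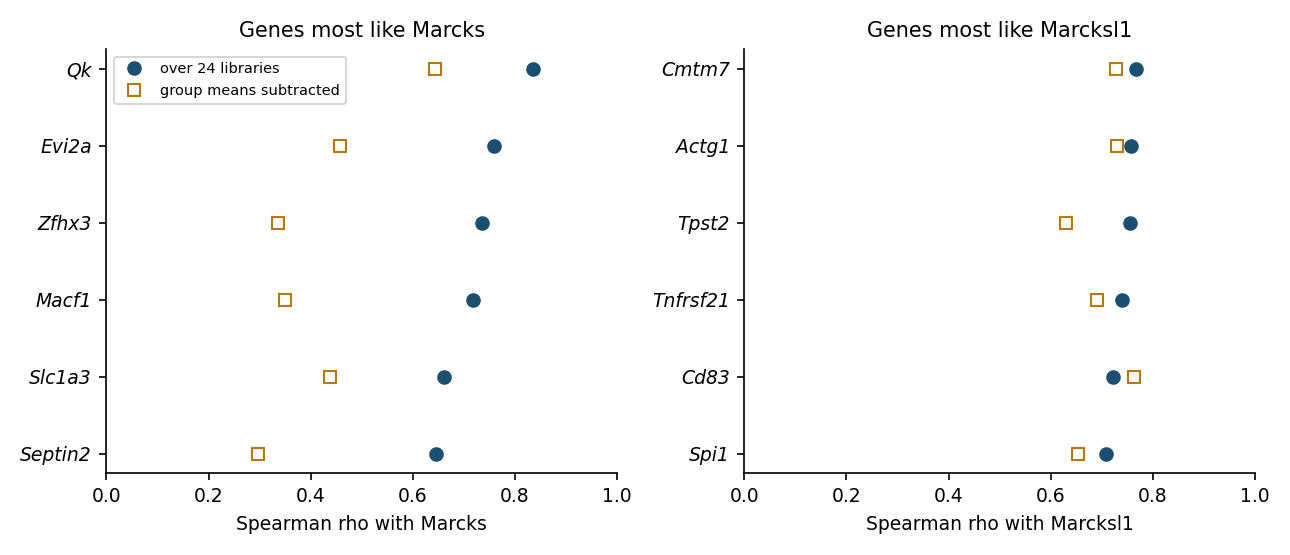
Spearman's rho of the 6 genes most like Marcks (left) and the 6 most like Marcksl1 (right) over 24 libraries (filled circles) and after group means were subtracted (open squares). For Marcks the squares lie to the left of the circles, from 0.836 to 0.643 for Qk and from 0.646 to 0.297 for Septin2, whereas for Marcksl1 they lie near the circles.

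The 250 bases before the start of Marcksl1 are shown because its level varied so widely between libraries, with the PU.1 core motif in capitals.
Marcksl1 promoter: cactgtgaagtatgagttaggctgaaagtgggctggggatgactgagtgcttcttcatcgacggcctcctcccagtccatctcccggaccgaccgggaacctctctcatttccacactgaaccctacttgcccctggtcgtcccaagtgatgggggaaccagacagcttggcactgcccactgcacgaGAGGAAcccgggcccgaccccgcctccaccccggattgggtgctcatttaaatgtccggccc
The sequence is from RefSeq on GRCm38.p6, chr4:129513331-129513580, plus strand. Its GC content was 60.4%, against a median of 52.4% over all promoters of that length. The PU.1 core GAGGAA occurred once, on the plus strand with its first base at −62 from the start, and 23.3% of 32851 promoters held it on either strand. The GC box GGGCGG, which 32.7% of promoters held, was not in this window on either strand, nor was TATAAA (12.4%). The AP-1 site TGANTCA (6.75%) and the NF-kB site (0.356%) were not there either. These matches describe letters only.

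Genes of proteins that act on or with MARCKS were grouped in 7 lists by role, 99 of whose 108 listed genes were tested. None of the 99 passed an adjusted p of 0.05 by edgeR in BCAS against Sham, in either exosome group against BCAS or in WD-Exos against ND-Exos. Over all tested genes the share called was 0% in BCAS against Sham and in WD-Exos against BCAS, and 0.0196% in each of the other 2 comparisons. DESeq2 called 0, 1, 1 and 1 of the 99 in the 4 comparisons in that order, and voom none. The 3 were the actin regulators Capzb, lower in ND-Exos than in BCAS (log2 difference −0.53, adjusted p = 0.00543 in DESeq2), and Spire1, lower in WD-Exos than in BCAS (−1.66, adjusted p = 0.0278), and the lipid transfer gene Pitpna, lower in WD-Exos than in ND-Exos (−2.50, adjusted p = 0.00622). DESeq2 called 120 to 204 genes of the whole table in a comparison, where edgeR called 0 to 2. At an unadjusted p under 0.05 in edgeR, 4.04% of the 99 lay in BCAS against Sham, beside 6.04% of all tested genes. The share was 5.05% beside 4.47% for ND-Exos against BCAS and 7.07% beside 3.71% for WD-Exos against BCAS. For WD-Exos against ND-Exos it was 14.1% beside 5.33%, with 5 of the 99 higher and 9 lower, where 2.91% of all tested genes were higher and 2.43% lower at that p. Whatever their p, 43 of the 99 were higher and 56 lower in BCAS than in Sham, and the split was again 43 to 56 in WD-Exos against ND-Exos. The median log2 difference of the 99 was −0.045, −0.063, −0.061 and −0.04 in the 4 comparisons in the order above. Over all tested genes it was −0.003, 0.005, −0.016 and −0.014. Over the 1423 tested genes at or above 100 CPM it was 0.017, −0.054, −0.053 and −0.005. The lists hold genes both above and below that level. The 99 were not tested as a set, and 1 gene is no replicate of another.

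Among the kinases, the protein kinase C genes of highest level were Prkcd and Prkcb. The level of Prkcd, a calcium-independent form, was 116 ± 51.2 CPM (SD, n = 6) in Sham, 103 ± 39.4 in BCAS, 146 ± 63 after ND-Exos and 227 ± 99 after WD-Exos. Its log2 difference of 1.14 (SE 0.38) between WD-Exos and BCAS had an unadjusted p of 0.00522 and an adjusted p of 0.816 in edgeR. Prkcb, a calcium-dependent form, had 129, 127, 98.5 and 143 CPM in that order of groups, and the kinase gene Rock1 48.6, 74, 74.6 and 55.7 CPM. Of the 11 tested kinases 5 were higher and 6 lower in BCAS than in Sham, and 4 were higher and 7 lower in WD-Exos than in ND-Exos.

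Calmodulin binds the effector domain when loaded with calcium. Its gene Calm2 had 1161 ± 98.4 CPM (SD, n = 6) in Sham, 1282 ± 195 in BCAS, 1467 ± 268 after ND-Exos and 1103 ± 223 after WD-Exos. Its groups stood in the order ND-Exos, BCAS, Sham, WD-Exos, with Sham above WD-Exos, unlike Marcks. The log2 difference of Calm2 between WD-Exos and ND-Exos was −0.41 (SE 0.14), with an unadjusted p of 0.00732 and an adjusted p of 0.538 in edgeR. Calm3, which encodes the same protein, stood at 41.5, 27.7, 30.3 and 35.5 CPM in Sham, BCAS, ND-Exos and WD-Exos.

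Among the phosphatases that can reverse phosphorylation of MARCKS, Ppp1ca, a catalytic subunit of protein phosphatase 1, kept to 491 to 537 CPM in its 4 group means. The calcineurin genes Ppp3r1 and Ppp3ca varied more. Ppp3r1 stood at 151, 114, 106 and 174 CPM in Sham, BCAS, ND-Exos and WD-Exos, and Ppp3ca at 49.7, 45.1, 96.4 and 64.3 CPM. Neither passed in any of the 4 comparisons. After WD-Exos, 7 of the 8 tested phosphatase genes were lower than after ND-Exos, with a list median of −0.51, where 5195 of all 10219 tested genes were lower. The list split 2 higher to 6 lower in BCAS against Sham, 6 to 2 in ND-Exos against BCAS and 4 to 4 in WD-Exos against BCAS.

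Nmt1, the N-myristoyltransferase that adds the lipid anchor, had 140 ± 33.7 CPM (SD, n = 6) in Sham, 233 ± 77.8 in BCAS, 197 ± 99.8 after ND-Exos and 186 ± 48.9 after WD-Exos. Its log2 difference between BCAS and Sham was 0.74 (SE 0.27), with an unadjusted p of 0.011 and an adjusted p of 0.441 in edgeR. Metap2, which removes the first methionine before the lipid is added, stood at 137, 105, 129 and 128 CPM. The protease gene Ctsb, whose product is known to cleave MARCKS, was far more abundant, at 6519, 6843, 5900 and 6608 CPM in that order of groups.

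For the lipid PIP2, 26 of 30 listed genes of its synthesis and turnover were tested. The lipid phosphatase gene Inpp5d had the highest level, at 486, 437, 411 and 495 CPM in Sham, BCAS, ND-Exos and WD-Exos. Pip4k2a, a lipid kinase gene, stood at 128, 174, 191 and 133 CPM, and the phospholipase gene Plcg2 at 138, 164, 145 and 151 CPM. The list split 14 higher to 12 lower in BCAS against Sham and again in WD-Exos against ND-Exos. It split 7 higher to 19 lower in ND-Exos against BCAS and 8 to 18 in WD-Exos against BCAS. All tested genes split 5146 to 5071 and 5000 to 5219 in these last 2 comparisons. Pitpna, a lipid transfer protein gene named after its values were seen, had the smallest p of the 7 lists in the comparison of the exosome groups. It stood at 72.3 ± 50.1 CPM (SD, n = 6) after ND-Exos and 12.7 ± 8.87 after WD-Exos, a log2 difference of −2.51 (SE 0.67) with an adjusted p of 0.299 in edgeR. Of the other proteins that bind PIP2 through basic stretches, Add1 stood at 88.4, 101, 83.3 and 98.1 CPM and Add3 at 57.9, 44.2, 47.3 and 55.9 CPM. Basp1, a myristoylated protein related in mode of action, stood at 52.4, 42.6, 44.9 and 29.8 CPM.

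Actin and its regulators were the most abundant list. The beta-actin gene Actb had 14730 ± 1180 CPM (SD, n = 6) in Sham, 15760 ± 2554 in BCAS, 15210 ± 2842 after ND-Exos and 15040 ± 2260 after WD-Exos, with log2 differences of 0.10, −0.05, −0.07 and −0.02 in the 4 comparisons (SE 0.12 each). Tmsb4x, which holds actin monomers, stood at 10560, 10500, 10530 and 9027 CPM, and the severing factor gene Cfl1 at 2397, 2295, 1999 and 2210 CPM. Of the 43 tested genes 18 were higher and 25 lower in BCAS than in Sham, and 20 were higher and 23 lower in WD-Exos than in ND-Exos. In the latter comparison 4 in each direction had an unadjusted p under 0.05. Among the higher were the capping protein gene Capzb at 0.44 (SE 0.14, adjusted p = 0.513 in edgeR) and Actg1 at 0.59 (SE 0.26, adjusted p = 0.806). Among the lower was Actr2, a subunit of the ARP2/3 complex that branches actin, at −0.66 (SE 0.20, adjusted p = 0.472). These 3 were named after their values were seen.

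**Figure D5:**
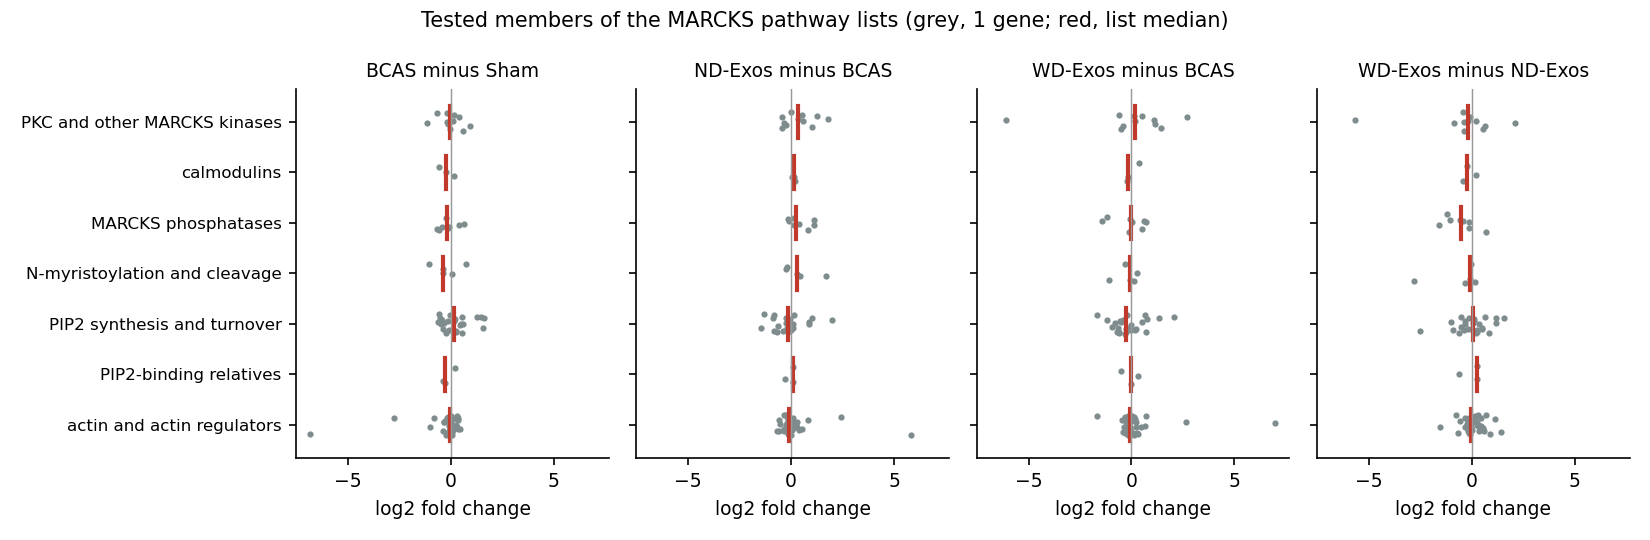
Log2 fold change of each tested gene of the 7 lists (grey points, 99 genes) and the median of each list (red bar) in 4 comparisons. The list medians lie between −0.509 and 0.312, none of the points passed an adjusted p of 0.05 in edgeR, and the points farthest from 0 are Prkcz and Ezr, both with 0 CPM in some libraries.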

How the data were processed

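RNA of sorted microglia was measured in 24 libraries, 4 groups of 6. Per the values in the deposited table, the authors gave estimated counts per Entrez gene, not scaled between libraries (76.8% of genes were whole in every library within 1e-06). The aligner, counting tool and build were not given in the sources used. Of 22064 gene rows, 6186 blank in every library were left out. Symbols came from RefSeq (GRCm38.p6) for 22002 rows. Values were rounded to whole counts, kept by filterByExpr (minimum 10), scaled by TMM (factors 0.937 to 1.18) and fitted over 24 libraries with 4 group means by edgeR 4.0.16 (R 4.3.3) with a robust quasi-likelihood F test and Benjamini-Hochberg adjustment over 10219 genes. Amplification and counting method can change low values such as those of Marcksl1. Smart-seq2 has no molecular identifiers.

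The members and lists were chosen with earlier results of these data known. Likeness was Spearman's rho of log2(CPM + 1), pseudocount 1, and the 6 highest were named. In each pathway list the 3 tested genes of highest mean CPM were named, except 1 that is not reported here. The inflammatory, immediate early, interferon, homeostatic and marker lists served as measures per library. Transcript lengths and coding sequences came from GENCODE vM21, used for sequence and length only. Same-numbered samples of BCAS and WD-Exos deviated together, with a correlation over 0.1 in 6 of 6 pairs (a pairing seen in the data, not given in the labels). In the other 5 pairs of groups 0 or 1 of 6 did. Alternatives used limma 3.58.1 and DESeq2 1.42.0, and figures matplotlib 3.10.9.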

Additional observations from a re-analysis of the deposited data

Results flagged for a closer look

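Marcksl1 in Sham replicate 3, at 41.2 CPM, stood apart from the other 5 Sham libraries, which had a mean of 8.09 ± 4.12 CPM (SD). Its gap to the nearest library was 0.714 of the group's range, above Dixon's critical value of 0.625 for 6 samples. It was the only one of 8 tests (2 genes in 4 groups) past that value. For normally distributed values chance passes about 1 group in 20. The test was run on CPM, where the values of Marcksl1 are skewed. The flag holds for that scale only and was not computed on log2(CPM + 1).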

How the results depend on the processing

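The fold changes of Marcks kept their direction under 12 alternatives (13 for WD-Exos minus BCAS) and on leaving out each of 12 libraries in each comparison. Marcks was chosen for BCAS above Sham, so the kept direction is a description in comparisons with Sham or BCAS. BCAS and ND-Exos did not overlap Sham, so leaving out a library could hardly turn the sign there. BCAS minus Sham ranged from 0.755 to 0.954 (0.735 to 0.929 with a library left out). In WD-Exos against ND-Exos neither gene passed under any of these. Marcks ranged from −0.374 to −0.183 (adjusted p 0.442 to 1) and, with a library left out, −0.424 to −0.258. Marcksl1 ranged from 0.557 to 4.13 (adjusted p 0.436 to 1) and, with a library left out, 1.43 to 2.58. Marcksl1 varied widely between libraries of a group, with a biological coefficient of variation of 1.42. What limits its precision was not tested.

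Marcksl1 values with no test moved most. With voom and library weights they were −1.61 for BCAS minus Sham, 3.22 for WD-Exos minus BCAS and −2.52 for ND-Exos minus Sham. With the inflammatory score as a covariate, added after seeing the data, they were −4.27 for BCAS minus Sham, 1.09 for ND-Exos minus BCAS, −3.18 for ND-Exos minus Sham and −2.62 for WD-Exos minus Sham. The cause was not tested. ND-Exos minus Sham turned to 0.519 with detected genes and 1.04 with the ribosomal share as covariate, and ND-Exos minus BCAS to 0.503 with the replicate block. Leaving out 1 library gave −0.506 to 1.24 for BCAS minus Sham, −1.68 to −0.012 for ND-Exos minus BCAS, 0.405 to 1.92 for WD-Exos minus BCAS, −1.19 to 0.234 for ND-Exos minus Sham and 0.901 to 2.17 for WD-Exos minus Sham. For Marcks, ND-Exos minus BCAS was −0.061 by library totals.

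With the replicate block, Marcks was −0.319 and Marcksl1 1.32 in WD-Exos against ND-Exos, and Marcksl1 was −1.15 in BCAS minus Sham. The block left the counts of called genes at 0, 2, 0 and 2. On the BCAS and WD-Exos libraries alone, an alternative added after seeing the data, the replicate block gave 3.2 for Marcksl1, −0.436 for Marcks and 0 called genes, and 3 of the 6 BCAS libraries correlated best with the WD-Exos library of their own number. In the other pairs of groups no library did.

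Genes called over the whole table in BCAS against Sham were 0 by edgeR, 204 by DESeq2, 10 by voom, 3 with the inflammatory score and 1 with the ribosomal share as covariate, and 0 to 32 with a library left out (32 without BCAS replicate 2). In ND-Exos against BCAS they were 2, 157 by DESeq2, 1 by voom, 1 with detected genes as covariate and 1 to 3 with a library left out (1 without BCAS replicate 5 or ND-Exos replicate 1, 2 or 6). In WD-Exos against BCAS they were 0, 120 by DESeq2, 1 by voom and 0 with each library left out. In WD-Exos against ND-Exos they were 2, 126 by DESeq2, 4 by voom, 1 with only the libraries of the 2 groups and 2 to 5 with a library left out (5 without ND-Exos replicate 5). Without the 2 libraries farthest from the median, rho of Marcks with Marcksl1 was −0.592 (adjusted permutation p = 0.0976). The group means subtracted for it were still those of all 24 libraries. With group-centred values, 1 of the 6 genes most like Marcks and 3 of the 6 most like Marcksl1 were shared.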
